A study of Mus musculus with 36 samples.

Results

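Imprinted genes are transcribed from the allele of a single parent, and the 44 genes described here are imprinted genes of the mouse taken by name and grouped by locus. They lie at 19 loci, and textbook knowledge gives the maternal allele as the active one for 17, the paternal allele for 24 and an isoform-dependent allele for 3. Imprinting of a gene can be confined to some tissues. Whether each member is read from a single allele in the cells used here was not measured, so maternal and paternal below name the textbook allele. They are 44 of the 51734 gene symbols of the count table, and the rule that picks them uses names and no measured value. The Grb10 locus is not among them. The study asked what the histone H3K4 methyltransferases MLL3 and MLL4 contribute through their catalytic activity when stem cells differentiate, and mRNA was sequenced with a strand-specific poly(A) kit. The 18 libraries used form 6 groups of 3 replicates, and all 18 carry dTAG-13, the compound that directs a dTAG-tagged protein to degradation, as a label treatment. The ESC groups are E14 embryonic stem cells that are wild type (ESC WT), that carry catalytically dead MLL3 and MLL4 (ESC dCD), or whose MLL2 bears the dTAG degron (ESC MLL2dTAG). The neural progenitor cell (NPC) groups NPC WT, NPC dCD and NPC MLL2dTAG are the same 3 lines after differentiation with retinoic acid, with dTAG-13 at 2 µM from day 1 and harvest on day 4. Each genotype is a line of its own, so the edit and other differences between lines cannot be told apart. The labels state neither whether a line is a single clone, nor whether replicates were separate cultures, nor how long ESC had dTAG-13. The p-values therefore measure the spread between these libraries, which may be technical.

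Imprinting rests on DNA methylation that is set in one germline at an imprinting control region, protected after fertilization by the zinc finger proteins ZFP57 and ZFP445 with their partner TRIM28, and copied at each division by DNMT1. Within a locus, genes read from the maternal and from the paternal chromosome often share enhancers or are linked by a long noncoding RNA such as Airn or Kcnq1ot1, which silences neighbours in cis. Many imprinted genes regulate fetal growth, placenta or brain: IGF2 is a growth factor, IGF2R its clearance receptor, and CDKN1C a cell cycle inhibitor. The MLL proteins methylate histone H3 at lysine 4, and unmethylated lysine 4 is the form to which the germline DNA methylation machinery binds. The counts do not separate the alleles, so more RNA from the active allele and RNA from the allele that is normally silent cannot be told apart in any result below.

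The 250 bases before a transcription start were taken from RefSeq for 35 of the 44 members (51 windows, mouse build GRCm38.p6). The hexamer TGCCGC, which ZFP57 binds when it is methylated, was searched for on both strands, where it reads GCGGCA on the other. It was found in 9 of the 51 windows (17.6%), against 8.68% of 32851 windows of all genes. The 9 include overlapping windows of Mest (chr6:30737800-30738049 and chr6:30737803-30738052). Counted by gene, where a gene can have several windows, it was found at 8 of the 35 members. The share by gene over all genes was not computed, and the 8.68% by window is not its counterpart. The 8 members were Zdbf2, Nap1l5, Zim1, Plagl1, Meg3, Mest, Copg2 and Mcts2. The median number of CpG dinucleotides was 10 in the members' windows and 6 in all windows. The hexamer itself holds a CpG, and the shares were not matched for CpG number. The windows of Igf2, Mirg, Dlk1, Ppp1r9a, Ndn, Magel2, Peg12, Phlda2, Slc22a18 and Slc38a4, members that changed at least 2-fold in a line, held no match. Imprinting control regions outside these windows were not searched, so a window without a match does not mean a locus without one. Whether the hexamer goes with a change was not tested. Windows of 4 members with changes of that size were chosen because they hold the hexamer. They are printed 5′ to 3′ in the direction of transcription, with the hexamer in capitals on either strand.
Zdbf2 (chr1:63200108-63200357, plus strand): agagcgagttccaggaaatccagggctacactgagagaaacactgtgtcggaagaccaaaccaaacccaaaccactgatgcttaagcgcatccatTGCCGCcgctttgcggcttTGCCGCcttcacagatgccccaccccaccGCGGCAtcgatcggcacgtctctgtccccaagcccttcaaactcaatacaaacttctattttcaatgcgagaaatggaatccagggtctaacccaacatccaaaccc
Nap1l5 (chr6:58907127-58907376, minus strand): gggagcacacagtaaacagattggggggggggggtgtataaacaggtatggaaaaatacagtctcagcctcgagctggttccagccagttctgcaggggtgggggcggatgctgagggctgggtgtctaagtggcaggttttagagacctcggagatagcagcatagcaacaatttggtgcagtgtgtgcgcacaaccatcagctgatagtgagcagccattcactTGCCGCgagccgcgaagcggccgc
Zim1 (chr7:6696433-6696682, minus strand): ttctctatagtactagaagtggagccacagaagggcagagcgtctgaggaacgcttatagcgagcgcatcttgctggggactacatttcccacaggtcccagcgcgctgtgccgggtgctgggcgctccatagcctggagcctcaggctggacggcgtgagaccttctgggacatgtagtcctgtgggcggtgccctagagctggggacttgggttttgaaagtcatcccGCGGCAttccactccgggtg
Plagl1 (chr10:13090582-13090831, plus strand): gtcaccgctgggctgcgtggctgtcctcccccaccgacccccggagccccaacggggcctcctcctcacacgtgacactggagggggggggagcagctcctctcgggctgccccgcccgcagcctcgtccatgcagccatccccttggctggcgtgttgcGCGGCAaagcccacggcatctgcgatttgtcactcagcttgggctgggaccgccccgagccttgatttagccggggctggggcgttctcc
Zdbf2 had 3 matches within this window and each of the other 3 genes had 1. Another Zdbf2 window, at a different start (chr1:63273019-63273268), had 26 CpG dinucleotides and no match. Peg3 and Usp29 are read in opposite directions from starts 163 bases apart, and the stretch between the starts, printed on the plus strand in the direction of Usp29 with its 5 CG dinucleotides in capitals, held no match.
Peg3/Usp29 (chr7:6730420-6730582, plus strand): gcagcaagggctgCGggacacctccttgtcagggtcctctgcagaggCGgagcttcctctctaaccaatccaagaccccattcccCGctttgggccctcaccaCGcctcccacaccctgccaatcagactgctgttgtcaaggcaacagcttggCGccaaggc
A match is a string of letters, and binding was not measured.

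The libraries held 19430860 to 46041277 counts. Levels are in counts-per-million units (CPM), scaled with TMM factors, and 3 counts, the limit a count of 0 allows, correspond to 0.0652 to 0.154 CPM in a library. ESC WT replicate 2 stood apart from its replicates by the chi-square per degree of freedom of the counts, at 10.5 and 8.38. The other ESC WT pair had 3.33, and the closest replicate pair of any group 2.19. Correlations of log2 CPM did not set it apart, at 0.987 with replicate 1 and 0.990 with replicate 3, against 0.988 between those. Changes are on the log2 scale, with the standard error as SE, and a gene is called at an adjusted p under 0.05 (edgeR quasi-likelihood test, Benjamini-Hochberg over 20511 genes). The 8 pluripotency markers summed to 3709 to 4245 CPM in ESC WT and to 41.4 to 42.2 in NPC WT. In ESC dCD they summed to 3537 to 3696 CPM (2 of 8 called higher and 5 lower) and in ESC MLL2dTAG to 4034 to 4302 (5 higher and 3 lower). They stood at 68.7 to 76.5 in NPC dCD, where 3 of 8 were called higher, and 206 to 209.6 in NPC MLL2dTAG, where 8 of 8 were. The 7 primitive endoderm markers summed to 672 to 708 CPM in NPC WT, 536 to 572 in dCD and 1957 to 1981 in MLL2dTAG, with 4 of 7 called lower in NPC dCD and 7 of 7 higher in NPC MLL2dTAG. In ESC they summed to 177 to 206 CPM in WT, 132 to 138 in dCD (3 called lower) and 354 to 371 in MLL2dTAG (4 called higher). The 8 neural progenitor markers summed to 560.3 to 583 CPM in NPC WT, 958 to 1045 in dCD (5 called higher) and 555 to 567 in MLL2dTAG (2 higher and 3 lower). In ESC they summed to 438 to 451 CPM in WT, 616 to 633 in dCD (5 higher and 1 lower) and 627 to 639 in MLL2dTAG (3 higher and 3 lower). In NPC WT against ESC WT, 7 of 8 neural progenitor markers were called higher, 3 of them by 2-fold or more. All 7 primitive endoderm markers were called higher there, each by 2-fold or more, and all 8 pluripotency markers lower. In the same comparison 3 neuron markers were higher and 3 lower, 4 mesenchyme markers higher and 4 lower, and 4 trophoblast markers higher and 3 lower. The 8 mesenchyme markers rose from 482 to 599 CPM in ESC WT to 766 to 856 in ESC dCD and 866 to 923 in ESC MLL2dTAG, with 8 of 8 called higher in both. They stood at 704 to 724 CPM in NPC WT, 902 to 986 in dCD, with 6 of 8 called higher, and 1080.0 to 1089 in MLL2dTAG, with 5 higher and 3 lower (Col1a2 by −2.85). The 6 neuron markers summed to 255 to 260 CPM in NPC WT, 391 to 422 in dCD (4 called higher) and 249.5 to 263 in MLL2dTAG (3 higher and 2 lower). In ESC they summed to 392 to 467 CPM over the 3 groups, with 2 higher and 2 lower in dCD and 1 higher and 4 lower in MLL2dTAG, where the neuron gene Dcx was at 0 counts. The 7 trophoblast markers, Ascl2 among them, summed to 78.3 to 83.4 CPM in NPC WT, 82.6 to 90.2 in dCD (3 higher and 1 lower) and 59.9 to 63.3 in MLL2dTAG (3 higher and 2 lower). Over the ESC groups they summed to 82.6 to 94.6 CPM, with 3 higher and 3 lower in dCD and 2 higher and 3 lower in MLL2dTAG. Several imprinted genes are abundant in endoderm and mesenchyme, and the part of these cell types in the results below was not tested. In bulk RNA, fewer cells of a type and less RNA per cell cannot be told apart.

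The members as a group stood higher in NPC WT than in ESC WT. They took 0.399% to 0.427% of all counts in ESC WT and 2.09% to 2.14% in NPC WT. Of the 43 members tested, 32 were called higher and 8 lower in NPC WT than in ESC WT, where 79.5% of all genes were called (39.1% higher and 40.4% lower). The median change was 0.92 for the members and −0.04 for all genes. Paternally expressed members had a median change of 1.95 (19 of 24 called higher) and maternally expressed members one of 0.51 (11 of 16). Kcnq1, a potassium channel gene, was the member not tested, with 1 to 14 counts per library.

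The largest rises were those of Igf2, Dlk1, Zim1 and Plagl1. Igf2 went from 25 ± 0.678 CPM (SD, n = 3) in ESC WT to 2902 ± 6.86 in NPC WT (log2 change 6.86, SE 0.05). Dlk1, a membrane ligand of the Notch family, changed by 6.73 (SE 0.09), Zim1, a zinc finger gene, by 6.48 (SE 0.07), and Plagl1, a transcription factor gene, by 5.65 (SE 0.05). Peg3, another zinc finger gene, had the most counts of any gene of the table in all 9 NPC libraries, a rank not corrected for exon length. Per kilobase of exon, which allows levels to be compared between genes, the order in NPC WT was H19 (1086 ± 19.8 CPM per kilobase), Igf2 (507 ± 1.20), Peg10 (423 ± 8.22), Peg3 (348 ± 7.81) and Mest (217 ± 3.70), and no 2 neighbours in that order overlapped. In ESC WT the highest were Slc38a4 (84.2 ± 1.94), Peg10 (83.3 ± 6.24) and Cd81 (78.9 ± 4.6), 3 genes whose levels did not differ beyond their spread. Falls were fewer: Phlda2, a growth-restraining gene of the placenta, went from 17.1 ± 1.64 to 0.561 ± 0.303 CPM (−4.89, SE 0.20), and Ascl2, a trophoblast transcription factor gene, and the transporter gene Slc22a18 changed by −3.31 (SE 0.27) and −2.51 (SE 0.23). With offsets for GC content and exon length, several of these changes shrank: Meg3 from 0.92 to 0.29, Rian from 0.70 to 0.08, Zdbf2 from 0.70 to 0.08, Ppp1r9a from 1.03 to 0.38, Usp29 from 5.39 to 4.69 and Peg3 from 4.22 to 3.62. The calls of Rian and Zdbf2 were lost, and the small changes of Igf2r (0.31), Kcnq1ot1 (0.70), Ube3a (0.17) and Mcts2 (−0.38) turned sign, to −0.10, −0.060, −0.50 and 0.016.

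**Figure D1:**
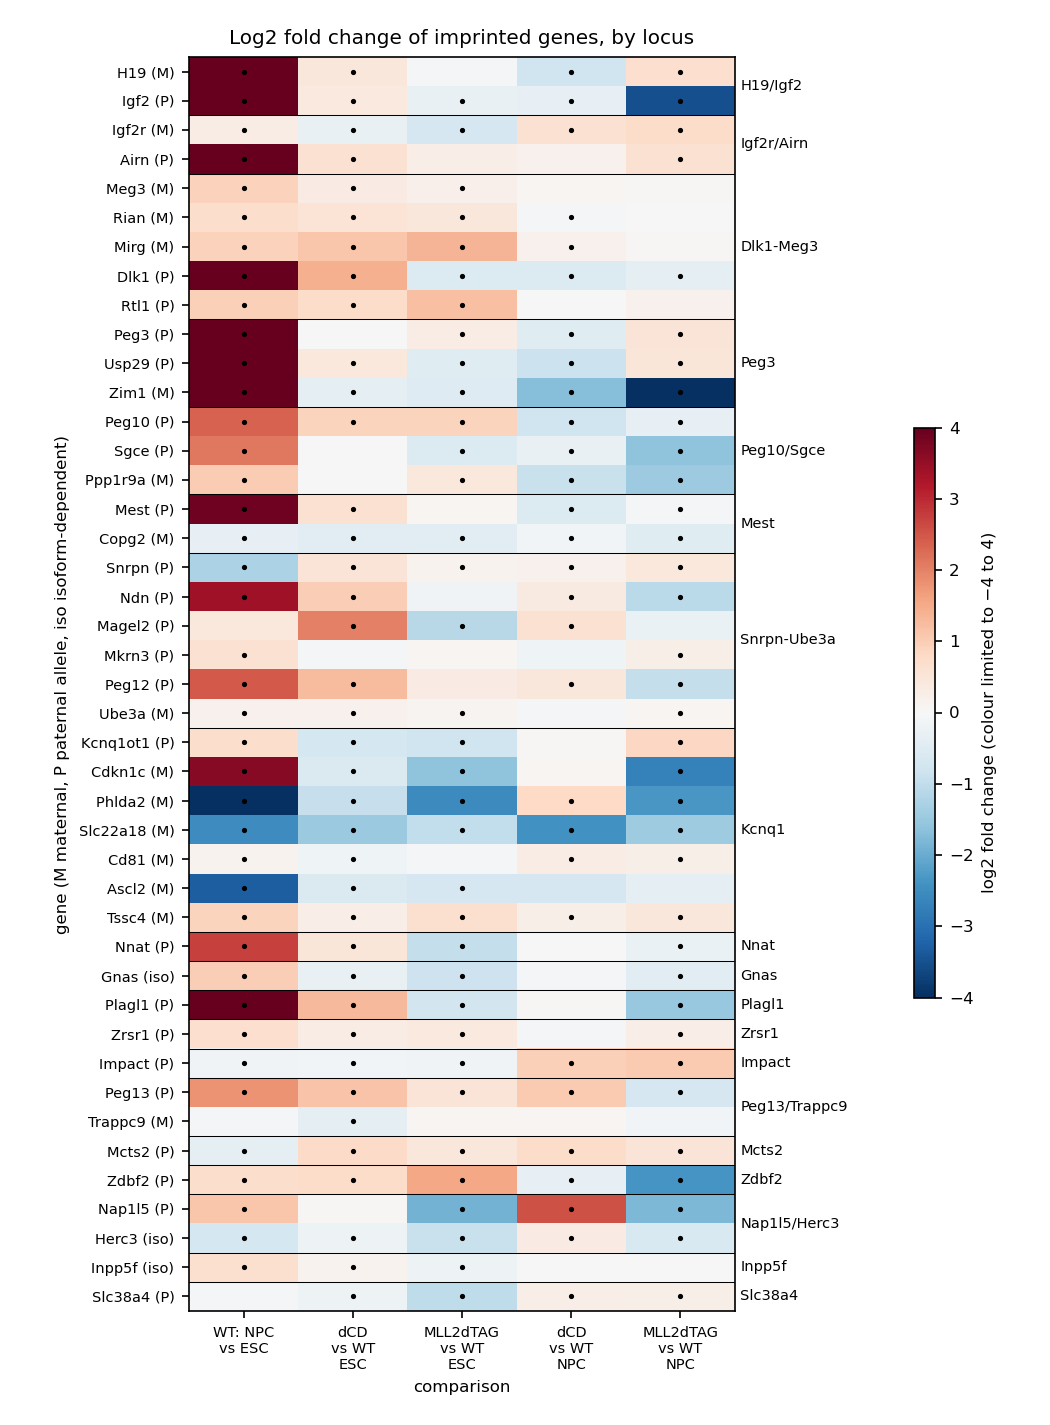
Log2 fold change of the 43 members tested (rows, by locus, with the active parental allele in brackets) in 5 comparisons (columns), with a dot where the gene was called at an adjusted p under 0.05 by edgeR and the colour limited to −4 to 4. The first column holds 32 calls higher and 8 lower, and the last column 15 higher and 20 lower, with the deepest blue at Zim1 and Igf2.

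Most members were called in each comparison of a line with WT, in both directions. In ESC dCD, 24 members were called higher and 14 lower of 43, against 48.3% of all genes called (25.7% higher and 22.6% lower). ESC MLL2dTAG had 14 higher and 21 lower against 56.9% (28.7% and 28.2%). Without ESC WT replicate 2, the library that stood apart by chi-square, the counts were 23 and 11 in ESC dCD and 14 and 23 in ESC MLL2dTAG. In NPC dCD the counts were 15 and 14 against 53.5% (26.7% and 26.8%), and in NPC MLL2dTAG 15 and 20 against 61.7% (33.3% and 28.4%). The members are more abundant than most genes: among genes that average at least 10 CPM, 66.1%, 72.9%, 72.6% and 77.8% were called in these comparisons, and of the 34 members at that level 30, 27, 23 and 29. Changes of 2-fold or more were made by 7, 8, 4 and 12 members in the same order, against 9.51%, 16.8%, 11.9% and 19.6% of all genes. Of these, 6 were higher and 1 lower in ESC dCD (5.66% of all genes were 2-fold higher and 3.86% lower), and 3 were higher and 5 lower in ESC MLL2dTAG (6.44% and 10.4%). In NPC dCD 2 were higher and 2 lower (7.03% and 4.86%), and in NPC MLL2dTAG 1, Impact, was higher and 11 lower (7.71% and 11.9%). The 2 lines at a stage share the WT libraries, so their values are given side by side. The median change of the members for dCD and MLL2dTAG was 0.28 and −0.15 in ESC and 0.02 and −0.10 in NPC, against 0.02, 0.00, −0.02 and 0.03 for all genes, and the median size of change was 0.45, 0.50, 0.31 and 0.50 against 0.31, 0.40, 0.35 and 0.42. In ESC dCD the paternally expressed members had a median of 0.55 (17 higher and 3 lower of 24) and the maternally expressed members one of −0.24 (6 higher and 9 lower of 16). Allele and locus are mixed here. At the Kcnq1 domain 6 of the 7 members tested were lower, the paternal Kcnq1ot1 among them. At Dlk1-Meg3 all 5 were higher, the maternal Meg3, Rian and Mirg among them. Whether the difference goes with allele or with locus was not tested. In the other 3 comparisons the paternal and maternal medians were −0.03 and −0.04 (ESC MLL2dTAG), 0.02 and 0.00 (NPC dCD), and −0.18 and −0.06 (NPC MLL2dTAG).

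At H19/Igf2 on chromosome 7, the growth factor gene and the noncoding RNA gene that compete for the same enhancers moved apart in NPC MLL2dTAG. Igf2, read from the paternal allele, had 2895, 2909 and 2901 CPM in the NPC WT libraries, 2414, 2262 and 2303 in NPC dCD, and 250.2, 256 and 256 in NPC MLL2dTAG. No groups overlapped, and the MLL2dTAG libraries were 11.4-fold lower in the mean (log2 change −3.51, SE 0.04, edgeR adjusted p = 3.23e-37), against −0.32 (SE 0.04, adjusted p = 3.49e-09) in dCD. H19, read from the maternal allele, had 2725, 2632 and 2654 CPM in NPC WT, 1563, 1563 and 1533 in NPC dCD, and 4429, 3985 and 4224 in NPC MLL2dTAG. It was thus lowest in all 3 dCD libraries (−0.78, SE 0.04) and highest in all 3 MLL2dTAG libraries (0.66, SE 0.04), with edgeR adjusted p = 5.36e-19 and 3.42e-17. By rank of counts, not corrected for exon length, Igf2 stood 2nd to 4th in NPC WT, 4th to 7th in dCD and 685th to 731st in MLL2dTAG. H19 stood 2nd in all 3 NPC MLL2dTAG libraries. In ESC, Igf2 had 24.6, 24.6 and 25.7 CPM in WT, 30.5, 37.0 and 31.1 in dCD and 18.9, 19.7 and 21.7 in MLL2dTAG, groups that did not overlap (0.39, SE 0.05, and −0.31, SE 0.06). H19 rose by 0.45 (SE 0.04) in ESC dCD, and in ESC MLL2dTAG it had 138 ± 0.741 CPM against 142 ± 12.4 in WT (adjusted p = 0.454). Igf2 shares 62.8% of its exon bases with the same-strand gene model Gm49394, and how the authors' counting split such reads is not given in the sources used here.

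**Figure D2:**
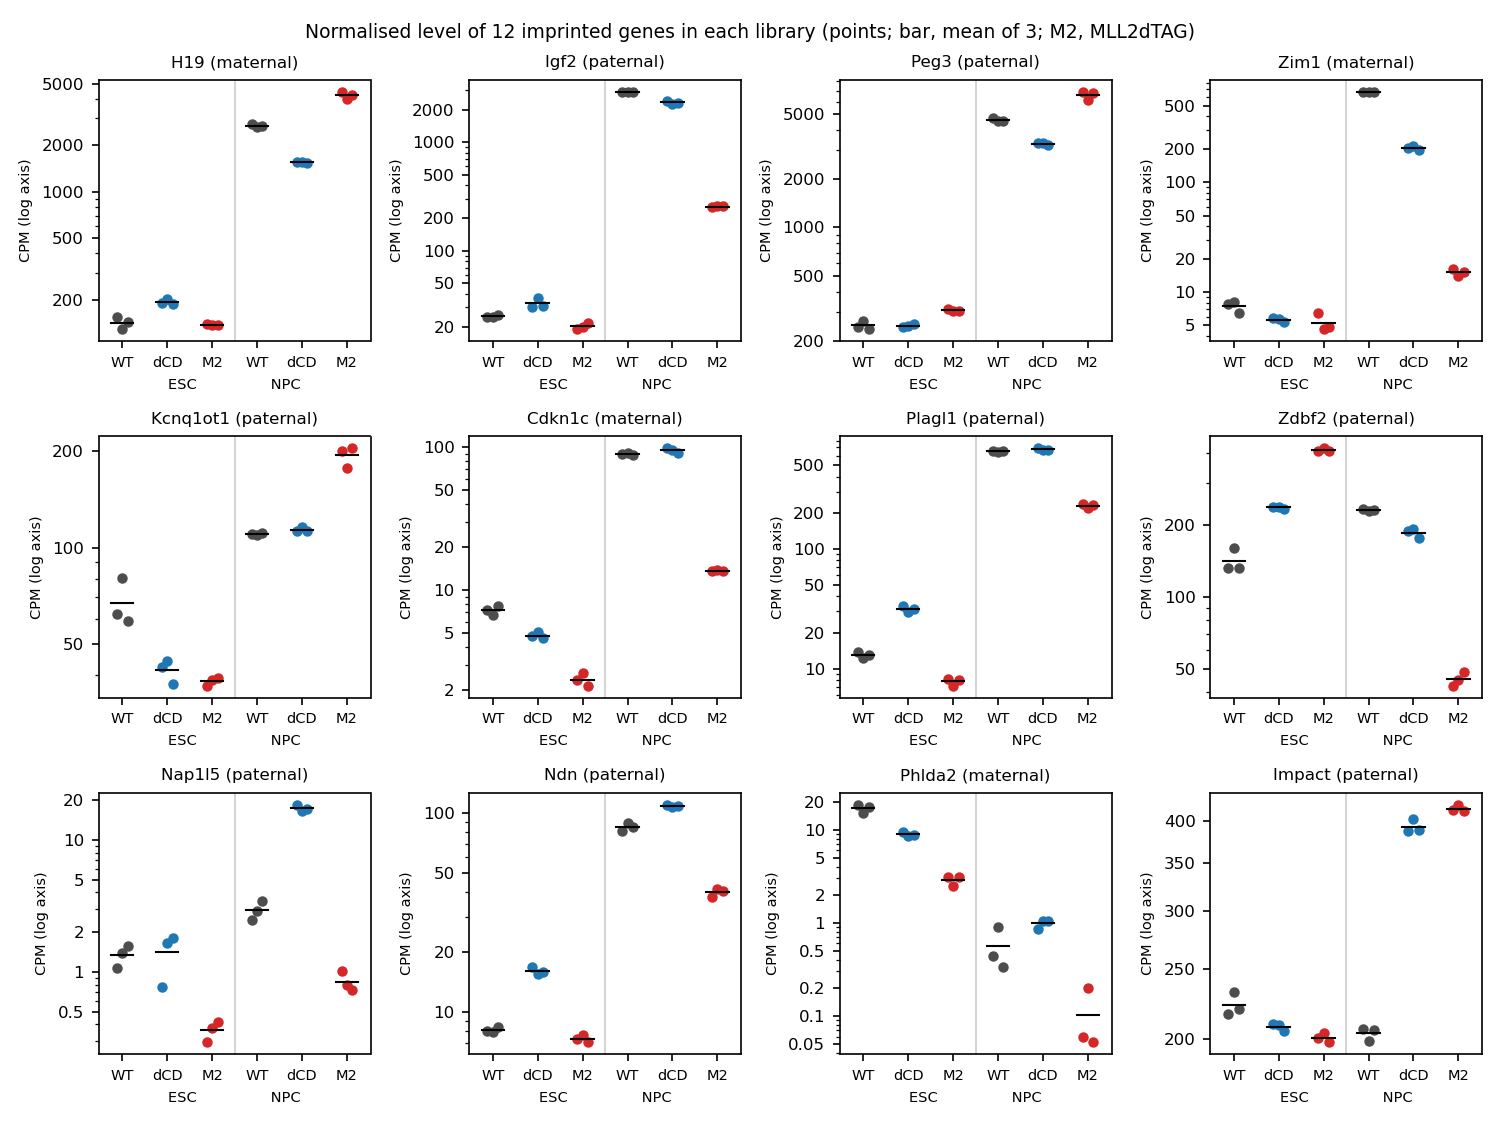
Normalised level (CPM, log axis, each panel with its own range) of 12 members in each of the 18 libraries, with a bar at the mean of 3 and M2 for MLL2dTAG. In NPC MLL2dTAG, Igf2 lies at 250.2 to 256 CPM against 2895 to 2909 in NPC WT, and Zim1 at 14.2 to 16.2 against 661 to 666.

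Igf2r and Airn on chromosome 17 encode the receptor that clears IGF2 and the paternal antisense RNA that silences it. Igf2r was lower in both ESC lines and higher in both NPC lines. It had 277, 341 and 293 CPM in ESC WT, 250.0, 253 and 233 in dCD and 187, 188 and 203 in MLL2dTAG, so that every edited library lay below every WT library (−0.31 and −0.66, both SE 0.05). The NPC values were 387, 374 and 371 CPM in WT, 580.4, 583 and 573 in dCD and 641, 607 and 641 in MLL2dTAG, with every edited library above WT (0.62 and 0.74, both SE 0.05). Airn had 32.1 ± 1.43 CPM in NPC WT, 35.8 ± 2.51 in dCD (adjusted p = 0.0537) and 49.0 ± 3.12 in MLL2dTAG (0.61, SE 0.07). In ESC it had 1.20 to 1.81 CPM in the group means, and its call in dCD (0.61, SE 0.21) ended when any 1 of ESC WT replicates 2 and 3 or ESC dCD replicates 2 and 3 was left out (adjusted p = 0.056 to 0.0714). It also ended with halved counts, the GC and length offsets or only the groups compared (adjusted p = 0.0574 to 0.0711).

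The Dlk1-Meg3 locus on chromosome 12 holds the maternal noncoding RNAs Meg3, Rian and Mirg and the paternal protein genes Dlk1 and Rtl1. All 5 were called higher in ESC dCD. Mirg, a host of miRNAs, had 21.1, 18.4 and 18.4 CPM in ESC WT, 40.2, 42.9 and 39.8 in dCD and 49.3, 48.4 and 50.6 in MLL2dTAG, both lines above WT without overlap (1.10, SE 0.07, and 1.37, SE 0.06, edgeR adjusted p = 5.25e-16 and 1.17e-19). Rtl1, a retrotransposon-derived placental gene, had 3.25, 3.51 and 3.19 CPM in ESC WT, 5.59, 6.04 and 5.07 in dCD and 7.76, 7.35 and 7.91 in MLL2dTAG, again with the lines above WT (0.74, SE 0.14, and 1.21, SE 0.13). Rian rose by 0.54 and 0.45 (both SE 0.03) and Meg3 by 0.34 and 0.19 (both SE 0.04).

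Dlk1 was the member of this locus whose direction differed between the lines. It had 4.26, 2.59 and 3.09 CPM in ESC WT, 9.81, 7.45 and 8.35 in dCD and 2.34, 1.92 and 2.27 in MLL2dTAG. The dCD libraries were all above and the MLL2dTAG libraries all below WT (1.42, SE 0.13, and −0.55, SE 0.17), and the call in MLL2dTAG ended without ESC WT replicate 1 (−0.38, adjusted p = 0.0639). In NPC it had 333, 347 and 336 CPM in WT, 259.6, 216 and 227 in dCD and 258, 260.0 and 254 in MLL2dTAG, below WT in every edited library (−0.53 and −0.40, both SE 0.05). The other 4 genes moved little in NPC. Mirg had 36.5, 36.8 and 36.7 CPM in NPC WT, 40.3, 41.6 and 42.8 in dCD (0.18, SE 0.06) and 36.6, 41.7 and 35.6 in MLL2dTAG (adjusted p = 0.418), and Rtl1 had 5.63, 7.29 and 6.14, then 5.86, 6.90 and 6.22, then 6.73, 7.68 and 7.20, with overlap throughout (adjusted p = 0.958 and 0.159). Meg3 group means were 699 to 735 CPM in NPC and not called in either line, and Rian was called in dCD alone, at −0.08 (SE 0.03, adjusted p = 0.0415), a call lost without any 1 of NPC WT replicates 1 and 2 and NPC dCD replicates 1 and 3 (adjusted p = 0.0712 to 0.143). It was also lost with RLE factors, no filter or DESeq2 (adjusted p = 0.0794 to 0.199).

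The Peg3 locus on chromosome 7 held the largest fall. Zim1, its maternal zinc finger gene, had 665, 661 and 666 CPM in NPC WT, 204, 212 and 197 in dCD and 16.2, 14.2 and 15.2 in MLL2dTAG. The 3 groups did not overlap, and the means were 3.24-fold lower in dCD (−1.70, SE 0.04, edgeR adjusted p = 1.41e-26) and 43.7-fold lower in MLL2dTAG (−5.46, SE 0.06, adjusted p = 1.19e-38). The paternal genes Peg3 and Usp29, which start back to back, went down in dCD and up in MLL2dTAG. Peg3 had 4757, 4571 and 4583 CPM in NPC WT, 3323, 3312 and 3242 in dCD and 6890.3, 6130.3 and 6762 in MLL2dTAG (−0.49 and 0.51, both SE 0.03). Usp29, a ubiquitin protease gene, had 169, 164 and 164 CPM, then 86.1, 94.0 and 90.6, then 230.3, 234 and 235 (−0.87 and 0.50, both SE 0.04), again without overlap. In ESC, Zim1 had 7.77, 8.19 and 6.45 CPM in WT, 5.80, 5.71 and 5.40 in dCD and 6.48, 4.62 and 4.83 in MLL2dTAG. It was called lower in both lines (−0.40 and −0.51, SE 0.11 and 0.10), with 1 MLL2dTAG library within the WT range. Peg3 was not called in ESC dCD (247 ± 4.34 against 248 ± 15.5 CPM, adjusted p = 0.893) and rose by 0.31 (SE 0.04) in ESC MLL2dTAG. Usp29 changed by 0.43 and −0.47 in ESC (SE 0.11 and 0.12), and 14.3% of its exon bases lie opposite the antisense gene Zim3.

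At Peg10/Sgce on chromosome 6, the paternal gene Peg10, a retrotransposon-derived gene needed in the placenta, rose in both ESC lines and fell in both NPC lines. Its means were 555 ± 41.6, 1038 ± 37.8 and 1022 ± 5.57 CPM in ESC WT, dCD and MLL2dTAG (0.90 and 0.88, both SE 0.04) and 2822 ± 54.8, 1633 ± 25.1 and 2271 ± 108 in NPC (−0.79 and −0.31, both SE 0.04). Sgce, which encodes epsilon-sarcoglycan and starts next to Peg10, had 79.1, 76.8 and 78.0 CPM in NPC WT, 60.5, 66.8 and 64.2 in dCD and 26.6, 27.7 and 22.5 in MLL2dTAG. Both lines were below WT without overlap (−0.29, SE 0.05, and −1.61, SE 0.06, edgeR adjusted p = 2.98e-05 and 6.4e-23). In ESC, Sgce had 17.1, 18 and 18.4 CPM in WT, 16.5, 18.5 and 17.7 in dCD (adjusted p = 0.807) and 12.5, 11.9 and 12.8 in MLL2dTAG (−0.53, SE 0.08). Ppp1r9a, a maternal gene for a neuronal actin-binding protein, had 257, 245 and 247 CPM in NPC WT, 131, 141 and 136 in dCD and 94.7, 86.1 and 92.5 in MLL2dTAG. It was lower in every edited NPC library (−0.88 and −1.46, both SE 0.04). In ESC it had 121, 131 and 114 CPM in WT, 121, 119 and 123 in dCD (adjusted p = 0.829) and 164, 162 and 161 in MLL2dTAG, above WT (0.41, SE 0.04).

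Mest, a paternal gene for a hydrolase-like protein also on chromosome 6, rose in ESC dCD (57.3 ± 2.5 to 87.8 ± 2.40 CPM, 0.61, SE 0.04) and fell in NPC dCD (854 ± 14.6 to 583 ± 9.34, −0.55, SE 0.03). In MLL2dTAG it had 61.0 ± 2.23 CPM in ESC (adjusted p = 0.0617) and 808 ± 23.4 in NPC (−0.08, SE 0.03), the latter call ending without any 1 of NPC WT replicates 1 and 3 and NPC MLL2dTAG replicates 2 and 3 (adjusted p = 0.0527 to 0.189) and with the GC and length offsets (−0.05, adjusted p = 0.181). Its antisense neighbour Copg2, a coat protein gene read from the maternal allele, was called lower in all 4 comparisons (−0.45 and −0.46 in ESC, −0.11 and −0.48 in NPC, all SE 0.04). The call in NPC dCD ended without NPC WT replicate 1 (−0.09, adjusted p = 0.06) and with no filter on low counts (adjusted p = 0.138). The pair overlaps over 23.1% of Mest and 17.8% of Copg2 exon bases on opposite strands. Whether the counting used the strand is not given in the sources used here, so counts of such overlapping genes are uncertain.

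In the Snrpn-Ube3a domain of chromosome 7, the region of Prader-Willi and Angelman syndromes, 4 of the 5 paternal genes of the set (Snrpn, Ndn, Magel2 and Peg12) were called higher in ESC dCD, and Mkrn3 was not (−0.06, adjusted p = 0.689). Ndn, a MAGE-family gene, had 7.98, 7.89 and 8.42 CPM in ESC WT, 16.9, 15.5 and 15.8 in dCD and 7.32, 7.63 and 7.05 in MLL2dTAG (0.98, SE 0.07, edgeR adjusted p = 2.32e-13, and adjusted p = 0.122 for MLL2dTAG). Its dCD libraries were all far above WT, while the MLL2dTAG libraries lay just below. Magel2, of the same family, had 0.958, 1.06 and 0.815 CPM in ESC WT, 4.52, 3.56 and 3.35 in dCD and 0.586, 0.559 and 0.209 in MLL2dTAG, above WT in dCD and below it in MLL2dTAG (2.01, SE 0.26, and −1.11, SE 0.34). The call in MLL2dTAG ended without ESC MLL2dTAG replicate 3 (−0.72, adjusted p = 0.0709). Peg12, an intronless gene, had 2.23, 3.35 and 2.79 CPM in ESC WT, 6.19, 7.41 and 6.86 in dCD (1.26, SE 0.14) and 3.81, 3.82 and 3.21 in MLL2dTAG (adjusted p = 0.0513), where 1 library fell within the WT range.

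The same 3 genes in NPC were above WT in dCD and at or below it in MLL2dTAG. Ndn had 81.7, 89.1 and 85.0 CPM in NPC WT, 110.0, 107 and 109 in dCD and 38.1, 41.4 and 40.5 in MLL2dTAG (0.35, SE 0.04, and −1.09, SE 0.05). Peg12 had 16.0, 14.9 and 16.3 CPM, then 23.0, 20.9 and 21.0, then 7.32, 8.78 and 8.27 (0.46 and −0.95, both SE 0.09), without overlap. Magel2 had 1.01, 1.22 and 1.56 CPM, then 2.08, 2.10 and 1.70, then 1.25, 0.927 and 0.991, with dCD above WT (0.62, SE 0.24) and MLL2dTAG overlapping it (adjusted p = 0.359). Its call in NPC dCD ended without any 1 of NPC WT replicates 1 and 2 and NPC dCD replicates 1 and 2 (adjusted p = 0.0774 to 0.131), and its count was even in all 18 libraries, as was that of Nap1l5. Snrpn, a splicing factor gene, was called higher in all 4 comparisons (0.50 and 0.14 in ESC, 0.16 and 0.42 in NPC, all SE 0.05). Its call in ESC MLL2dTAG ended without ESC WT replicate 2 or ESC MLL2dTAG replicate 1 (adjusted p = 0.129 and 0.0689) and with upper quartile factors (0.09, adjusted p = 0.104). That in NPC dCD ended without NPC WT replicate 2 or NPC dCD replicate 3 (adjusted p = 0.108 and 0.0544) and with the GC and length offsets (0.08, adjusted p = 0.175). Ube3a, the ubiquitin ligase gene of Angelman syndrome, changed by 0.16, 0.12, −0.07 and 0.08 (all SE 0.04), the third not called. The second was not called with upper quartile factors (0.07, adjusted p = 0.136). The fourth was not called with RLE factors, library totals, no filter, the replicate block or only the groups compared (0.0026 to 0.08, adjusted p = 0.05 to 0.962), with upper quartile factors, where its sign turned (−0.0062), nor without NPC WT replicate 2, NPC WT replicate 3 or NPC MLL2dTAG replicate 3 (adjusted p = 0.0981, 0.131 and 0.302). Mkrn3, a zinc finger gene linked to puberty, was called in NPC MLL2dTAG alone (0.25, SE 0.08), and not without NPC MLL2dTAG replicate 2 (0.21, adjusted p = 0.0571), with upper quartile factors (0.16, adjusted p = 0.0902) or with library totals (0.17, adjusted p = 0.0809).

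The Kcnq1 domain of chromosome 7 is silenced on the paternal allele by Kcnq1ot1, and several of its maternal genes restrain growth. Cdkn1c, the cell cycle inhibitor gene, had 89.0, 91.3 and 87.5 CPM in NPC WT, 97.9, 95.0 and 91.6 in dCD and 13.5, 13.8 and 13.7 in MLL2dTAG. The MLL2dTAG libraries were 6.53-fold lower in the mean (−2.71, SE 0.05, edgeR adjusted p = 2.18e-30), and dCD was not called (0.09, adjusted p = 0.111). Kcnq1ot1 had 110.1, 109 and 111 CPM in NPC WT, 112, 116 and 113 in dCD (adjusted p = 0.56) and 201, 177 and 204 in MLL2dTAG, all above WT (0.82, SE 0.06). In ESC both fell together: Cdkn1c had 7.29, 6.66 and 7.71 CPM in WT, 4.74, 5.05 and 4.62 in dCD and 2.34, 2.61 and 2.14 in MLL2dTAG, without overlap (−0.59 and −1.61, both SE 0.10). Kcnq1ot1 had 62.2, 80.3 and 59.3 CPM in ESC WT, 42.4, 44.3 and 37.7 in dCD and 37.2, 38.8 and 39.4 in MLL2dTAG, so that both lines lay below every WT library and overlapped each other (−0.71 and −0.81, both SE 0.07). Cdkn1c lies opposite the antisense model Gm44732 over 30.7% of its exon bases.

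Phlda2 had 18.5, 15.3 and 17.6 CPM in ESC WT, 9.51, 8.61 and 8.87 in dCD and 3.08, 2.51 and 3.08 in MLL2dTAG, a series of 3 separate levels (−0.92, SE 0.14, and −2.56, SE 0.15, edgeR adjusted p = 7.61e-07 and 1.82e-16). In NPC it was near the detection limit, with 0.443, 0.905 and 0.335 CPM in WT, 0.858, 1.05 and 1.06 in dCD and 0.0593, 0.199 and 0.0522 in MLL2dTAG, the last from 2, 9 and 2 counts. The change was 0.79 (SE 0.28) in NPC dCD, a call that ended without any 1 of NPC WT replicates 1 and 3 and NPC dCD replicates 2 and 3 (adjusted p = 0.0531 to 0.148). It was −2.33 (SE 0.44) in NPC MLL2dTAG, and −3.27 without NPC MLL2dTAG replicate 2. Slc22a18 was lower in both lines at both stages, and it had 3.88, 4.01 and 3.91 CPM in ESC WT, 1.45, 1.32 and 1.45 in dCD and 1.76, 1.77 and 2.37 in MLL2dTAG (−1.48 and −0.99, SE 0.22 and 0.21). Its NPC values were 0.759, 0.745 and 0.558 CPM in WT, 0.123, 0.110 and 0.147 in dCD, from 4, 4 and 5 counts, and 0.326, 0.265 and 0.183 in MLL2dTAG (−2.41 and −1.41, SE 0.38 and 0.32). Of the other genes of the domain, Ascl2 changed by −0.59 and −0.67 in ESC (SE 0.22 and 0.21), and not beyond its spread in NPC, where its group means were 0.444 CPM in WT, 0.269 in dCD and 0.331 in MLL2dTAG. Its call in ESC dCD ended without any 1 of ESC WT replicate 1, ESC dCD replicate 2 and ESC dCD replicate 3 (adjusted p = 0.0561 to 0.0971). Tssc4, a splicing cofactor gene, was called higher in all 4 (0.28 and 0.66 in ESC, 0.23 and 0.46 in NPC). Cd81, a tetraspanin gene, was lower in ESC dCD (−0.16, SE 0.04) and higher in both NPC lines (0.31 and 0.23, both SE 0.04).

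Zdbf2 on chromosome 1, a paternal zinc finger gene of growth control, was highest in MLL2dTAG among the ESC groups and lowest in MLL2dTAG among the NPC groups. It had 132, 160.3 and 132 CPM in ESC WT, 238, 239 and 234 in dCD and 408, 417 and 408 in MLL2dTAG, 3 separate levels (0.74 and 1.53, both SE 0.05, edgeR adjusted p = 1.08e-14 and 3.7e-24). In NPC the values were 234, 229 and 230.3 CPM in WT, 189, 192 and 177 in dCD and 42.7, 45.1 and 48.5 in MLL2dTAG, 5.09-fold below WT in the mean (−0.31, SE 0.05, and −2.35, SE 0.05, adjusted p = 6.84e-07 and 4.1e-29). The change in MLL2dTAG differed between the stages by −3.88 (SE 0.07, edgeR adjusted p = 2.63e-30).

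Plagl1 on chromosome 10, which encodes a regulator of other imprinted genes, had 13.9, 12.2 and 12.9 CPM in ESC WT, 33.6, 29.9 and 31.5 in dCD and 8.24, 7.20 and 8.06 in MLL2dTAG. The lines lay on opposite sides of WT (1.29, SE 0.06, and −0.72, SE 0.07). In NPC it had 655, 638 and 654 CPM in WT, 688, 668 and 669 in dCD (adjusted p = 0.184) and 235, 219 and 231 in MLL2dTAG, 2.85-fold lower in the mean (−1.51, SE 0.04, edgeR adjusted p = 4.17e-28).

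Nap1l5, a paternal intronless gene in an intron of Herc3 on chromosome 6, had the largest rise in NPC dCD. It had 2.47, 2.87 and 3.46 CPM in NPC WT, 18.4, 16.4 and 17 in dCD and 1.01, 0.795 and 0.730 in MLL2dTAG. The dCD mean was 5.89-fold that of WT (2.55, SE 0.15, edgeR adjusted p = 7.19e-17), and every MLL2dTAG library was below WT (−1.81, SE 0.21). In ESC it had 1.06, 1.39 and 1.56 CPM in WT, 0.768, 1.66 and 1.79 in dCD (adjusted p = 0.894) and 0.293, 0.372 and 0.418 in MLL2dTAG, below WT (−1.89, SE 0.30). Herc3, a ubiquitin ligase gene, moved in the same direction in NPC with smaller changes (0.34 and −0.61, both SE 0.06) and fell in ESC (−0.20 and −0.90, both SE 0.06), the first of these not called without ESC WT replicate 2 (−0.15, adjusted p = 0.0596).

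Impact on chromosome 18, a paternal gene for an inhibitor of the GCN2 stress kinase, rose in both NPC lines to similar levels. It had 206, 198 and 206 CPM in NPC WT, 387, 403 and 389 in dCD and 415, 421 and 413 in MLL2dTAG (0.95 and 1.03, both SE 0.03, edgeR adjusted p = 2.28e-23 and 8.68e-25). The 2 lines differed by −0.08 (SE 0.03, adjusted p = 0.0254), a call lost without NPC dCD replicate 1, NPC dCD replicate 3 or NPC MLL2dTAG replicate 2 (adjusted p = 0.0893 to 0.0926). It was also lost with 5 of the other settings (adjusted p = 0.0748 to 0.993). ESC values were 216, 232 and 219.5 CPM in WT, 209.6, 209 and 205 in dCD and 201, 203 and 198 in MLL2dTAG, slightly lower in both lines (−0.10 and −0.15, both SE 0.03). The first call ended without ESC WT replicate 2 or ESC dCD replicate 3 (adjusted p = 0.0803 and 0.0629) and with no filter on low counts (adjusted p = 0.144). The second call ended with no filter (−0.09, adjusted p = 0.0564) and with the GC and length offsets (−0.06, adjusted p = 0.105).

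Peg13, a paternal noncoding RNA in an intron of Trappc9 on chromosome 15, was about 2-fold higher in dCD at both stages. It had 3.19, 2.75 and 3.13 CPM in ESC WT, 6.44, 7.62 and 5.74 in dCD and 4.50, 4.47 and 3.86 in MLL2dTAG, both lines above WT (1.13, SE 0.14, and 0.50, SE 0.14). The NPC values were 9.43, 11.3 and 10.3 CPM in WT, 21.4, 21.3 and 20.9 in dCD and 7.53, 6.40 and 5.76 in MLL2dTAG, with the lines on opposite sides of WT (1.03, SE 0.09, and −0.66, SE 0.10, edgeR adjusted p = 1.25e-11 and 9.17e-07). Trappc9, a trafficking gene, was called in ESC dCD alone (−0.37, SE 0.05). Slc38a4, a paternal amino acid transporter gene on the same chromosome, had 367, 358 and 351 CPM in ESC WT, 307, 312 and 316 in dCD and 180.3, 177 and 176 in MLL2dTAG, below WT in both (−0.20 and −1.01, both SE 0.03). In NPC it had 347, 337 and 348 CPM in WT, 421, 414 and 396 in dCD and 408, 397 and 407 in MLL2dTAG, above WT in both (0.26 and 0.23, both SE 0.03).

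The remaining members lie at loci with a single gene of the set. Nnat, a neuronal proteolipid gene, rose from 45.7 ± 2.23 to 64.0 ± 2.71 CPM in ESC dCD, fell to 23.7 ± 1.46 in ESC MLL2dTAG (0.49 and −0.95, both SE 0.05), and was lower in NPC MLL2dTAG (−0.27, SE 0.04). Mcts2, a retrogene, was called higher in all 4 comparisons (0.77, 0.44, 0.74 and 0.51, all SE 0.06). Zrsr1, a splicing factor retrogene, was called higher in all but NPC dCD (0.31, 0.40 and 0.26). Inpp5f, a phosphatase gene, changed by 0.14 in ESC dCD and −0.20 in ESC MLL2dTAG (both SE 0.05), and was not called in NPC. The first was not called without ESC WT replicate 3 or ESC dCD replicate 2 (adjusted p = 0.0584 and 0.0697), with the GC and length offsets (0.07, adjusted p = 0.204) or with only the groups compared (adjusted p = 0.071). Gnas, the gene of a G protein subunit, changed by −0.83 (SE 0.12) in ESC MLL2dTAG and by −0.46 (SE 0.09) in NPC MLL2dTAG. Its call in ESC dCD (−0.29, adjusted p = 0.0408) ended in 4 of the fits that leave out a library, those without ESC WT replicate 2 or 3 and without ESC dCD replicate 2 or 3 (adjusted p = 0.0695 to 0.152). It also ended in 7 of the other settings, DESeq2 among them (adjusted p = 0.051 to 0.273). The symbol had 3.31 to 11.6 CPM in the group means and overlaps Nespas and Gm20721 on the opposite strand, so its counts are uncertain.

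Counts of 2 genes of a locus in the same library give a ratio that no scaling factor enters. The log2 ratio of H19 to Igf2 was −0.12 ± 0.03 (SD, n = 3) in NPC WT, −0.58 ± 0.05 in dCD and 4.05 ± 0.09 in MLL2dTAG, and 2.5 ± 0.13 to 2.78 ± 0.11 in the ESC groups. That of Kcnq1ot1 to Cdkn1c was 0.30 ± 0.04, 0.26 ± 0.05 and 3.82 ± 0.13 in the same order in NPC, and 3.11 ± 0.07 to 4.03 ± 0.16 in ESC. Peg3 to Zim1 rose in 3 steps in NPC, from 2.80 ± 0.03 in WT over 4.01 ± 0.04 in dCD to 8.76 ± 0.03 in MLL2dTAG. Peg3 to Usp29, the pair with starts 163 bases apart, went from 4.81 ± 0.01 in NPC WT to 5.19 ± 0.07 in dCD and 4.82 ± 0.10 in MLL2dTAG. The ratio of Herc3 to Nap1l5 was 3.06 ± 0.30 in NPC WT, 0.83 ± 0.15 in dCD and 4.25 ± 0.25 in MLL2dTAG. For Meg3 to Dlk1 it was 6.83 ± 0.40 in ESC WT, 5.78 ± 0.16 in dCD and 7.60 ± 0.11 in MLL2dTAG, against 1.05 ± 0.02 to 1.65 ± 0.11 in NPC. Library by library, no edited NPC library overlapped NPC WT for H19 to Igf2 or Peg3 to Zim1.

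**Figure D3:**
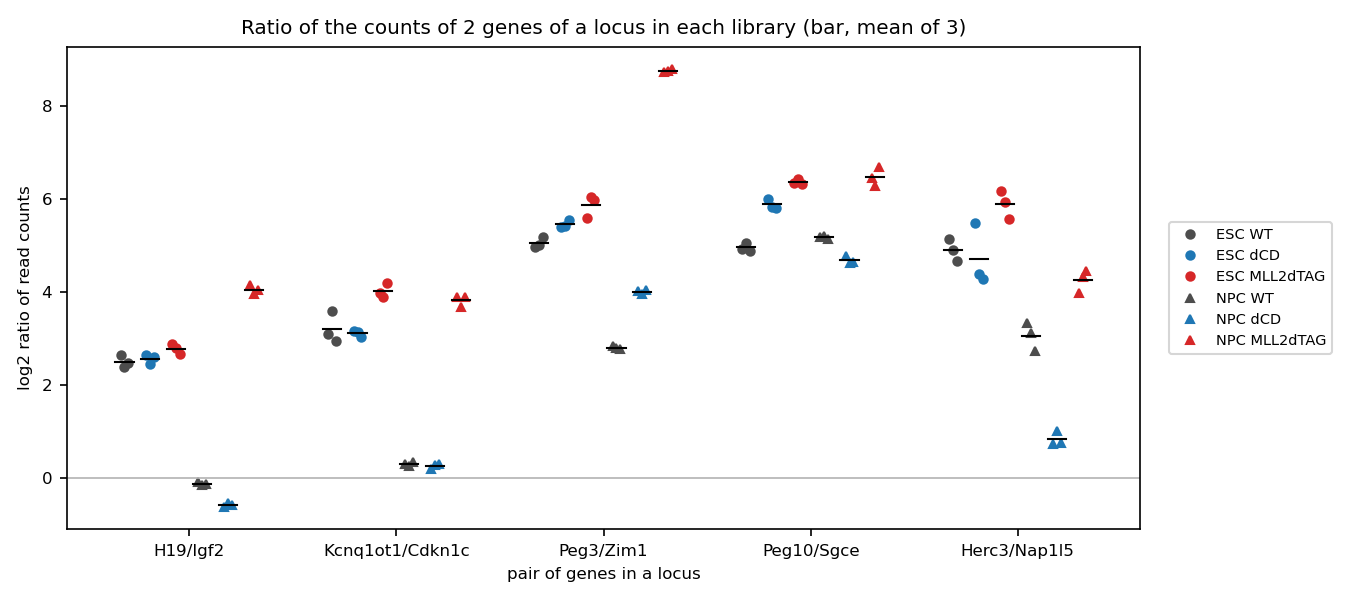
Log2 ratio of the counts of 2 genes of a locus in each library (circles ESC, triangles NPC, bars the mean of 3). In NPC MLL2dTAG the ratios of H19 to Igf2 (3.96 to 4.15) and of Kcnq1ot1 to Cdkn1c (3.68 to 3.90) lie above those of NPC WT (−0.14 to −0.09 and 0.26 to 0.34), and Peg3 to Zim1 reaches 8.73 to 8.80.

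Changes of a line often differed between the stages. In dCD, 25 of the 43 members were called at both stages, 14 of them in opposite directions. Of all genes, 32.1% were called at both stages in dCD and 9.65% in opposite directions. Dlk1, H19, Igf2, Mest, Peg10, Rian, Usp29 and Zdbf2 were higher in ESC and lower in NPC, and Cd81, Herc3, Igf2r, Impact, Phlda2 and Slc38a4 the reverse. Among these, the NPC calls of Rian and Phlda2 and the ESC calls of Impact and Herc3 were lost in some settings, as given above. In MLL2dTAG, 28 members were called at both stages (41.3% of all genes) and 9 in opposite directions (10.6%), with 13 lower at both (14%). Here the ESC calls of Impact, in opposite directions, and of Dlk1, lower at both, were lost in some settings. Tested as an interaction, the change in NPC minus that in ESC was called for 34 of 43 members in dCD (11 positive and 23 negative), against 42.9% of all genes (20% and 22.9%), and for 30 in MLL2dTAG (13 positive and 17 negative), against 49% (26.4% and 22.6%). Differences of 2-fold or more were positive for 3 and negative for 9 in dCD (5.68% and 5.4% of all genes), and positive for 4 and negative for 11 in MLL2dTAG (8.35% and 8.97%). Among paternally expressed members in dCD, 16 of 24 interactions were negative and 4 positive, with a median of −0.49, against −0.04 for all genes. Maternally expressed members had 7 negative and 6 positive of 16, with a median of −0.17. The median over all members tested was −0.34.

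The 2 edited lines were also compared directly. In ESC, 24 members were called higher in dCD than in MLL2dTAG and 8 lower, against 47.2% of all genes (23.7% higher and 23.4% lower). All 8 differences of 2-fold or more were higher in dCD, led by Magel2 (3.12, SE 0.28), Plagl1 (2.02, SE 0.06), Dlk1 (1.97, SE 0.14), Nap1l5 (1.94, SE 0.31) and Phlda2 (1.64, SE 0.16), against 8.58% of all genes 2-fold higher and 3.13% lower. With offsets for GC content and length, which moved the median of all genes by −0.12, the counts were 21 and 14, and 33.3% of all called genes were higher in place of 50.3%. In NPC, 21 were higher and 15 lower in dCD, against 55.9% of all genes (24.3% and 31.6%); with upper quartile factors 54.8% of the called genes were higher in place of 43.5%, and with the GC and length offsets 34.8%. Under these 2 settings the members numbered 23 higher and 11 lower, and 18 and 20. The largest of these were Nap1l5 (4.36, SE 0.18), Zim1 (3.76, SE 0.06), Igf2 (3.19, SE 0.04), Phlda2 (3.12, SE 0.39), Cdkn1c (2.79, SE 0.05) and Zdbf2 (2.03, SE 0.05), and the lowest were H19 (−1.44, SE 0.04), Usp29 (−1.37, SE 0.04) and Peg3 (−1.0, SE 0.03). Without NPC MLL2dTAG replicate 2 the difference of Phlda2 was 4.06.

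A list of 22 genes that set, copy, protect or erase imprints was read beside the members. In ESC dCD, 10 of the 22 were called higher and 7 lower, beside 48.3% of all genes called, and in ESC MLL2dTAG 8 and 10, beside 56.9%. Among those called that average at least 5 CPM over all libraries, the highest rises were those of the oxidase gene Tet3 in ESC dCD (17.5 ± 1.03 to 30.7 ± 1.47 CPM, 0.81, SE 0.06) and of Zfp57 in ESC MLL2dTAG (348 ± 10.6 to 677 ± 32.7 CPM, 0.96, SE 0.03). The lowest in both lines was Dppa3, which protects the maternal methylome of the zygote, with 17 ± 3.14 CPM in WT against 6.71 ± 0.762 and 6.97 ± 0.286 (−1.33, SE 0.14, and −1.28, SE 0.13). In NPC dCD 14 were called lower and the other 8 were not called, beside 53.5% of all genes called (26.8% lower), the lowest being Dnmt3b (−0.52, SE 0.06), with a list median of −0.19 against −0.02 for all genes. NPC MLL2dTAG had 10 higher and 6 lower, beside 61.7%. There Dnmt3l, the cofactor of germline methylation, had 8.89 ± 0.708 CPM against 0.935 ± 0.0776 (3.25, SE 0.12), and Dnmt1, the maintenance methyltransferase gene, fell from 385 ± 2.95 to 207 ± 3.77 CPM (−0.89, SE 0.03). Dnmt1 was also lower in ESC MLL2dTAG (−1.13, SE 0.03). Dppa3 was at 0 counts in every NPC library. Protein levels and DNA methylation were not measured, and a part of these RNAs in the members' changes was not tested.

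**Figure D4:**
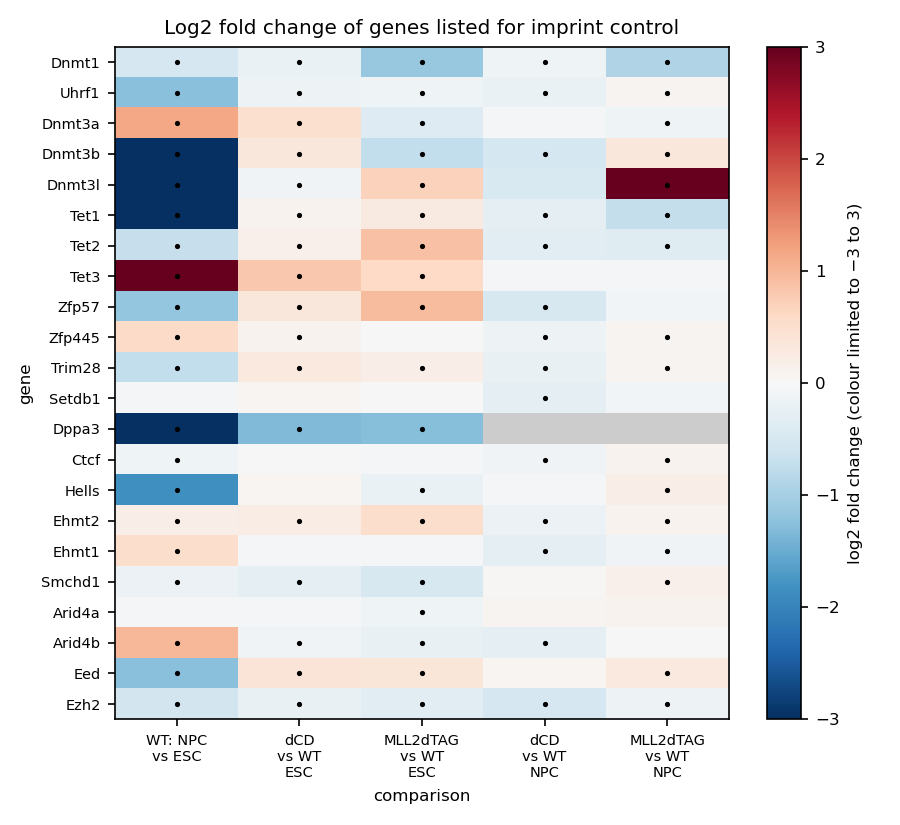
Log2 fold change of the 22 genes listed for imprint control (rows) in 5 comparisons (columns), with a dot where called and the colour limited to −3 to 3; grey marks Dppa3 in NPC, at 0 counts in both groups. Dnmt1 is blue in both MLL2dTAG columns (−1.13 and −0.89) and Dnmt3l is dark red in NPC MLL2dTAG (3.25).

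Other imprinted genes, most of them tissue-restricted or weakly imprinted, and neighbours of the loci that are not known to be imprinted were read in the same fit. Of the 42 other imprinted genes tested, 17 were called higher and 9 lower in ESC dCD, 11 and 11 in ESC MLL2dTAG, 14 and 20 in NPC dCD and 12 and 19 in NPC MLL2dTAG. That is 61.9%, 52.4%, 81.0% and 73.8% of the list, beside 48.3%, 56.9%, 53.5% and 61.7% of all genes. Among those called that average at least 5 CPM over all libraries, the extremes in both ESC lines were Dcn, a matrix proteoglycan gene (1.41, SE 0.27, and 1.40, SE 0.26) whose ESC group means were 0.674 to 1.76 CPM, and Calcr, the calcitonin receptor gene of the Peg10 region (−2.64, SE 0.19, and −3.37, SE 0.20). In NPC dCD they were Tnfrsf23 of the Kcnq1 region (2.51, SE 0.18) and Atp10a, a lipid flippase gene next to Ube3a (−0.94, SE 0.09), and in NPC MLL2dTAG Dcn (1.34, SE 0.10) and Begain, which lies beside Dlk1 (−2.95, SE 0.17). Of the 40 neighbours tested, 12 were called higher and 9 lower in ESC dCD, 8 and 11 in ESC MLL2dTAG, 11 and 16 in NPC dCD and 16 and 12 in NPC MLL2dTAG, which is 52.5%, 47.5%, 67.5% and 70% of them beside the same shares of all genes. In these comparisons 1, 2, 2 and 2 neighbours changed by 2-fold or more, and 3, 11, 10 and 13 of the other imprinted genes did, beside 9.51%, 16.8%, 11.9% and 19.6% of all genes. Named by the same rule, the extremes among neighbours were Slc38a1 (0.47) and Osbpl1a (−0.56) in ESC dCD, Lsp1 (0.76) and Dusp8 (−1.70) in ESC MLL2dTAG, Mrpl23 (−0.71) at the lower end in NPC dCD, and Pnldc1 (1.10) and Mrpl23 (−0.54) in NPC MLL2dTAG.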

How the data were processed

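Read counts per gene were deposited by the authors as a whole-number table, made with HTSeq per the submitters' processing notes, and the counts are not normalized. For this table the sources used here name neither the aligner nor the genome build. The 18 libraries were grouped by their labels into 6 groups of 3, each library with 19430860 to 46041277 counts, and 18 further count columns were not matched to a sample and were not used. The table lists 51734 symbols, of which 37417 had a count.

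Genes were filtered with filterByExpr by group (minimum count 10), scaled with TMM factors and fitted with edgeR 4.0.16 (R 4.3.3) by the quasi-likelihood method, with 1 mean per group over all 18 libraries (12 residual degrees of freedom, biological coefficient of variation 4.01%). The 9 comparisons were tested over 20511 genes with Benjamini-Hochberg adjustment, calls were made at an adjusted p under 0.05, and the SE is the log2 fold change divided by the root of the F statistic. CPM carry TMM factors; limits from counts cover counting error only. Exon lengths, GC content and overlaps came from the GENCODE M21 annotation, and promoter windows from RefSeq (GRCm38.p6). The script was tested on simulated data.

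The members, the lists of other genes and the tests were chosen with earlier results of these data known. Members with a mean of at least 1 CPM in a group and a called change of 2-fold or more in a line against WT are given library by library (19 genes), as are H19, Peg3, Usp29, Kcnq1ot1 and Igf2r, which were added as locus partners after their values were seen; from each list the extremes called with a mean of at least 5 CPM are named, except 1 that is not reported here. Alternatives were other scaling factors (RLE, upper quartile, library totals), no filter, halved counts, offsets for GC content and length, the replicate number as a block, only the groups compared, DESeq2 1.42.0, and each library left out.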

Additional observations from a re-analysis of the deposited data

Results flagged for a closer look

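Members whose change in a line differed between ESC and NPC by 2-fold or more, in the edgeR test of the difference itself, are given here as the log2 change in NPC minus that in ESC. In dCD the difference was called for 34 of 43 members. The positive ones of that size were Nap1l5 (2.5), Phlda2 (1.71) and Impact (1.05). The negative ones were Dlk1 (−1.95), the retrotransposon-derived gene Peg10 (−1.69), Magel2 (−1.38), Usp29 (−1.30), Zim1 (−1.30), Plagl1 (−1.24), H19 (−1.23), Mest (−1.16) and Zdbf2 (−1.05). Of these, Dlk1, Peg10, Usp29, H19, Mest and Zdbf2 changed sign between the stages, whereas Magel2 was called higher and Zim1 lower at both.

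In MLL2dTAG the difference was called for 30 of 43 members. Zim1 (−4.95), Zdbf2 (−3.88) and Igf2 (−3.20) led the negative ones, followed by Ppp1r9a (−1.87), Mirg (−1.31), Peg12 (−1.28), Peg10 (−1.19), Peg13 (−1.17), Cdkn1c (−1.09), Sgce (−1.07) and Rtl1 (−1.03). Zdbf2, Ppp1r9a, Peg10 and Peg13 were higher in ESC and lower in NPC. The positive ones were Kcnq1ot1 (1.63), Igf2r (1.40), Slc38a4 (1.25) and Impact (1.18), each lower in ESC MLL2dTAG and higher in NPC MLL2dTAG than in WT. Markers of pluripotent cells and primitive endoderm also differed between NPC MLL2dTAG and NPC WT, and their part in these differences was not tested.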

How the results depend on the processing

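Over the 9 comparisons there were 387 values for the 43 members. Direction and side of the threshold were kept by 380 with RLE factors, 363 with upper quartile factors, 365 with library totals, 365 without a filter, 381 with halved counts, 347 with offsets for GC content and length, 380 with DESeq2, and 368 of 386 with only the groups compared. The sign of Ube3a in NPC MLL2dTAG turned with upper quartile factors (−0.0062). With the GC and length offsets, which cover 96.0% of the genes tested, signs turned for Rian in NPC MLL2dTAG (0.18); for Igf2r (−0.10), Ube3a (−0.50), Kcnq1ot1 (−0.060) and Mcts2 (0.016) between the WT stages; for Rian (−0.10), Peg10 (−0.11), Copg2 (−0.18), Ube3a (−0.14) and Impact (−0.16) in ESC dCD against ESC MLL2dTAG; and for Inpp5f (−0.13) and Slc38a4 (−0.14) in NPC dCD against NPC MLL2dTAG. Some small changes stayed called and moved by over 1.5 times. With the GC and length offsets these were Cd81 (−0.26), Zrsr1 (0.20), Impact (−0.22) and Slc38a4 (−0.33) in ESC dCD; Snrpn (0.25), Ube3a (0.26) and Inpp5f (−0.11) in ESC MLL2dTAG; Rian (−0.13) and Copg2 (−0.19) in NPC dCD; and Ube3a (0.26) in NPC MLL2dTAG. With upper quartile factors they were Mest (−0.17), Cd81 (0.14), Zrsr1 (0.17) and Slc38a4 (0.14) in NPC MLL2dTAG; library totals did the same to Mest, Cd81 and Slc38a4, and a fit of only the groups compared to Mest (−0.13). The members called lower in ESC dCD against ESC MLL2dTAG numbered 14 with the GC and length offsets in place of 8, and the cause was not tested.

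Leaving out 1 library at a time gave 22 to 24 members higher and 11 to 14 lower in ESC dCD, 13 to 16 and 20 to 23 in ESC MLL2dTAG, 13 to 15 and 13 to 14 in NPC dCD, and 14 to 15 and 19 to 20 in NPC MLL2dTAG. The interactions of Sgce in dCD and of Gnas, Inpp5f, Meg3 and Trappc9 in MLL2dTAG were each lost without at least 1 library.

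Same-numbered replicates did not deviate together (r −0.019 to 0.0258). With the replicate block, 384 of 387 member results kept their call; those lost were Gnas in ESC dCD (−0.29, edgeR adjusted p = 0.051), Ube3a in NPC MLL2dTAG (0.08, adjusted p = 0.05) and Mirg in NPC dCD against NPC MLL2dTAG (0.13, adjusted p = 0.0555). The counts under the block were 24 and 13 in ESC dCD, 14 and 21 in ESC MLL2dTAG, 15 and 14 in NPC dCD and 14 and 20 in NPC MLL2dTAG. Members under 1 CPM in a group, such as Phlda2 and Slc22a18 in NPC, rest on few counts.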
